A study of Mus musculus with 41 samples.

Results

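Immunoglobulin transcripts were examined in 41 bulk RNA libraries from mouse endometriosis lesions, as the set of all count rows whose symbols begin with the heavy-chain constant, variable or joining prefixes (Igha, Ighd, Ighg, Ighm, Ighv, Ighj) or their kappa and lambda counterparts. The letters of that rule matched 142 of 21249 rows, and all but 1 were kept as members, since Ighmbp2 is a helicase gene that only shares the first letters. The members were 7 heavy-chain constant genes, 4 light-chain constant genes, 60 Ighv, 59 Igkv and 3 Iglv rows, and 8 joining segments. All members were placed to 1 gene each in GENCODE M21 on GRCm38: 71 on chromosome 12 (heavy chain), 64 on chromosome 6 (kappa) and 6 on chromosome 16 (lambda). That annotation lists 393 symbols under the rule, and the others, among them the IgE gene Ighe, were not analysed here. All members had passed the authors' removal of rows with low totals, so segments seen in few lesions may be among the others.

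An antibody is made of paired heavy and light chains, each with a variable part that binds antigen and a constant part that fixes the class. A B cell joins 1 variable segment to joining segments in each chain and carries that choice to its progeny, and plasma cells, its antibody-secreting descendants, fill much of their RNA with these transcripts. B-1 cells, the main B cells of the mouse peritoneal cavity, make natural IgM with a narrow set of segments. Known pairs of that set are VH11 with Vκ9 (Ighv11-2 with a row of the Igkv14 subgroup, called the Vκ9 row below) and VH12 with Vκ4 (Ighv12-3 with Igkv4-91), both known for binding phosphatidylcholine.

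In the model, a uterine punch of 4 mm from a donor mouse was fixed with tissue glue to a recipient's peritoneal wall. The mice were 12 to 16 weeks old. From day 7 they received 3 intraperitoneal injections over 6 days, of 1 µg interleukin-33 (IL-33) each or of PBS. IL-33 activates group 2 innate lymphoid cells (ILC2s), which make type 2 cytokines such as IL-5. The ILC2-deficient genotype of the design, Nmur1iCre-eGFP Id2fl/fl, carries a Cre driven by Nmur1 and floxed alleles of Id2, and is called deficient below. Deficient mice received IL-33 after transfer of 250000 ILC2s (n = 4), IL-33 after 120000 ILC2s (n = 2), IL-33 with added PBS (n = 4), IL-33 alone (n = 4) or PBS alone (n = 4). ILC2s were injected into the peritoneal cavity on the day before IL-33. In lesion transfer, deficient recipients carried Nmur1iCre-eGFP fragments (n = 4) and Nmur1iCre-eGFP recipients carried deficient ones (n = 4), all with IL-33. The competent groups were C57Bl/6J given IL-33 after 120000 ILC2s (n = 3), and C57Bl/6J (wild type), Nmur1iCre-eGFP (Cre controls) and Id2fl/fl (floxed controls) given IL-33 alone (n = 4 each). The recipients of all lesions outside the transfer groups were taken to have the fragment's genotype. Whether replicates were separate mice is not in the labels, and the p-values therefore reflect only how these samples spread, part of which may be technical.

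The libraries held 28884926 to 70526624 counts (median 42906356), and 3441 to 351231 of them fell in immunoglobulin rows (median 37245). A list of 14 liver genes took 2.96% to 11.5% of the counts in 4 libraries (wild-type replicate 4, Cre-control replicate 3, deficient IL-33 replicate 2 and replicate 3 of wild type with 120000 ILC2s) and at most 0.135% in the others. Results named below are given without these libraries where that changes a call. No pair of the 58 within groups held counts alike within sampling noise. Below, levels are in CPM, counts scaled by edgeR to a common library size with TMM factors, a share is a percentage of the counts named with it, and a row is called when its adjusted p from edgeR's quasi-likelihood test over all 21249 genes is under 0.05. Wilson 95% intervals were at most 0.0052 percentage points wide for the immunoglobulin share, 4.06 points for an isotype, 9.56 points for the highest Ighv row and 8.49 points for the highest Igkv row. They cover counting error only.

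The sequences shown first are the variable exons of the natural-antibody pairs, because Ighv11-2 and the Vκ9 row led most libraries. They are the coding part of the main variable exon from GENCODE M21 on GRCm38, cut to its last 300 bases where it is longer, 5′ to 3′ in the direction of the gene, with capitals from the last cysteine codon in frame, which opens the third complementarity-determining region, to the exon's end. Ighv11-2 lies at chr12:114048241-114048540 (minus strand), the Vκ9 row at chr6:67896345-67896642 (plus strand), Ighv12-3 at chr12:114366521-114366820 (minus strand) and Igkv4-91 at chr6:68768555-68768854 (minus strand).
Ighv11-2: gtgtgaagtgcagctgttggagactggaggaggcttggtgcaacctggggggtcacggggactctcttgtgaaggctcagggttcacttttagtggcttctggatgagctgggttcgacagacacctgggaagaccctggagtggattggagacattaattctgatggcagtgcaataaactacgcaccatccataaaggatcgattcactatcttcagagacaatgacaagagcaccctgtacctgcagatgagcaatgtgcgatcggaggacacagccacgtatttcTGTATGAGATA
Vκ9 row: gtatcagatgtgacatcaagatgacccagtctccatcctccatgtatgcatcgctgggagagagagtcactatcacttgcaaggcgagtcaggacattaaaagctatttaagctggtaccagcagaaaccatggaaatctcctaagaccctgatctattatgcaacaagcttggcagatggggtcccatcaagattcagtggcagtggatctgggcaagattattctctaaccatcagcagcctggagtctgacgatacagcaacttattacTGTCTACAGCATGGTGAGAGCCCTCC
Ighv12-3: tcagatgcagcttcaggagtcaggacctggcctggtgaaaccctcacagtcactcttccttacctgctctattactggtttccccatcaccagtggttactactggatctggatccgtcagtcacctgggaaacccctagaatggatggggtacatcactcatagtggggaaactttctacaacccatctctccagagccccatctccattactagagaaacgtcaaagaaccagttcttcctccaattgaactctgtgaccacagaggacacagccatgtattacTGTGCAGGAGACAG
Igkv4-91: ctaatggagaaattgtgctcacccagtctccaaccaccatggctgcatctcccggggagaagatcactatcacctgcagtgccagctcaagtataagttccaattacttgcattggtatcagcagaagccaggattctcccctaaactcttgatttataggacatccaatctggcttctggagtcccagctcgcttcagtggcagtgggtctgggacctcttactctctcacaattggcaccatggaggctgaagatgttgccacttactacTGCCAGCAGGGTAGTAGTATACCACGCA

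The next 4 sequences are variable exons of pairs that led only a few libraries, shown in the same way. Ighv6-3 (chr12:114391712-114392011, minus strand) went with Igkv2-137 (chr6:67555917-67556216, plus strand). Ighv1-11 (chr12:114612243-114612542, minus strand) went with Igkv8-16 (chr6:70386672-70386971, minus strand).
Ighv6-3: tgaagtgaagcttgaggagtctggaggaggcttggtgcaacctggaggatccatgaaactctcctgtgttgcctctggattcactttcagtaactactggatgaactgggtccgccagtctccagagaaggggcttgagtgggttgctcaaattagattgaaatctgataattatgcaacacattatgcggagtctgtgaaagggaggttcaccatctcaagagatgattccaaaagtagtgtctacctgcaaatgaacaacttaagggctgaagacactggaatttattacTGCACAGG
Igkv2-137: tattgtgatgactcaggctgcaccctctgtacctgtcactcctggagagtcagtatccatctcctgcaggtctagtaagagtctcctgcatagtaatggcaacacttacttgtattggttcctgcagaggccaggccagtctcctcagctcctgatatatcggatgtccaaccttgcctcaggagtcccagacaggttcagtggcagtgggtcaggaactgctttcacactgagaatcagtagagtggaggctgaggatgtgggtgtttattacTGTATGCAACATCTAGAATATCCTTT
Ighv1-11: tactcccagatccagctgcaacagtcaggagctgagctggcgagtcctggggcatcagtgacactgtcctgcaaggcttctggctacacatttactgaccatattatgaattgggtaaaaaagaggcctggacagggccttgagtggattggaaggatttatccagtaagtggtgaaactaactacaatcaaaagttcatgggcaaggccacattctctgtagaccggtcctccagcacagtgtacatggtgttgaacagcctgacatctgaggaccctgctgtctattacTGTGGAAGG
Igkv8-16: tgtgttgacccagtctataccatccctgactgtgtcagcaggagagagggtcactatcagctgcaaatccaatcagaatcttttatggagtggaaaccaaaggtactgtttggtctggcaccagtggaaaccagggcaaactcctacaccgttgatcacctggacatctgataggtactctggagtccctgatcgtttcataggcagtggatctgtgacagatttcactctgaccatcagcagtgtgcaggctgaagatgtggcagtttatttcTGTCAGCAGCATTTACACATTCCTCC

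Between the full coding exons, Ighv11-2 was 62.9% identical to Ighv12-3, 68.4% to Ighv6-3 and 60.3% to Ighv1-11. The Vκ9 row was 68.3% identical to Igkv4-91, 62.0% to Igkv2-137 and 66.1% to Igkv8-16. Ighv11-2 was 98.7% identical to Ighv11-1, a row of the same table, and 48.8% of its windows of 50 bases also occur in other variable exons, so part of its reads could be set aside or credited elsewhere. The Vκ9 row, Igkv2-137, Ighv1-11 and Igkv8-16 had nearest relatives at 90.9%, 88.2%, 82.6% and 81.7% identity and shared no such window. Ighv6-3 was 92.6% identical to Ighv6-6 and shared 16.5% of its windows.

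The immunoglobulin share of all counts spanned 0.00781% to 0.782% over the 41 libraries, with a median of 0.0857%. The share was 0.0646%, 0.0831%, 0.225% and 0.0244% in deficient lesions after 250000 ILC2s (mean 0.0992 ± 0.0872, SD, n = 4), against 0.0667%, 0.0946%, 0.228% and 0.117% with added PBS (mean 0.127 ± 0.0707, n = 4). It was 0.0540% and 0.0285% after 120000 ILC2s. In deficient lesions given IL-33 alone it was 0.0384%, 0.0572%, 0.0348% and 0.0956% (mean 0.0565 ± 0.0278), against 0.0470%, 0.0198%, 0.181% and 0.0286% with PBS alone (mean 0.0690 ± 0.0753). In both comparisons the groups overlapped.

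Cre-control fragments in deficient recipients had 0.103%, 0.265%, 0.0906% and 0.0966% (mean 0.139 ± 0.0843), against 0.0745%, 0.0997%, 0.0263% and 0.417% for deficient fragments in Cre-control recipients (mean 0.154 ± 0.178). Wild-type lesions after 120000 ILC2s had 0.0720%, 0.124% and 0.0754%, against 0.00781%, 0.124%, 0.145% and 0.0923% without transfer (mean 0.0922 ± 0.0603). Cre controls had 0.0517%, 0.231%, 0.183% and 0.526% (mean 0.248 ± 0.200), against 0.0670%, 0.0430%, 0.782% and 0.0857% in floxed controls (mean 0.244 ± 0.359). The highest libraries of the series were thus floxed-control replicate 3, Cre-control replicate 4 and replicate 4 of the deficient fragments in Cre-control recipients. Within each of floxed controls, Cre controls and deficient fragments in Cre-control recipients, the replicates spanned more than the group means of the series did, which ran from 0.0412% to 0.248%. In bulk tissue, fewer antibody-making cells and less antibody RNA per cell cannot be told apart.

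**Figure D1:**
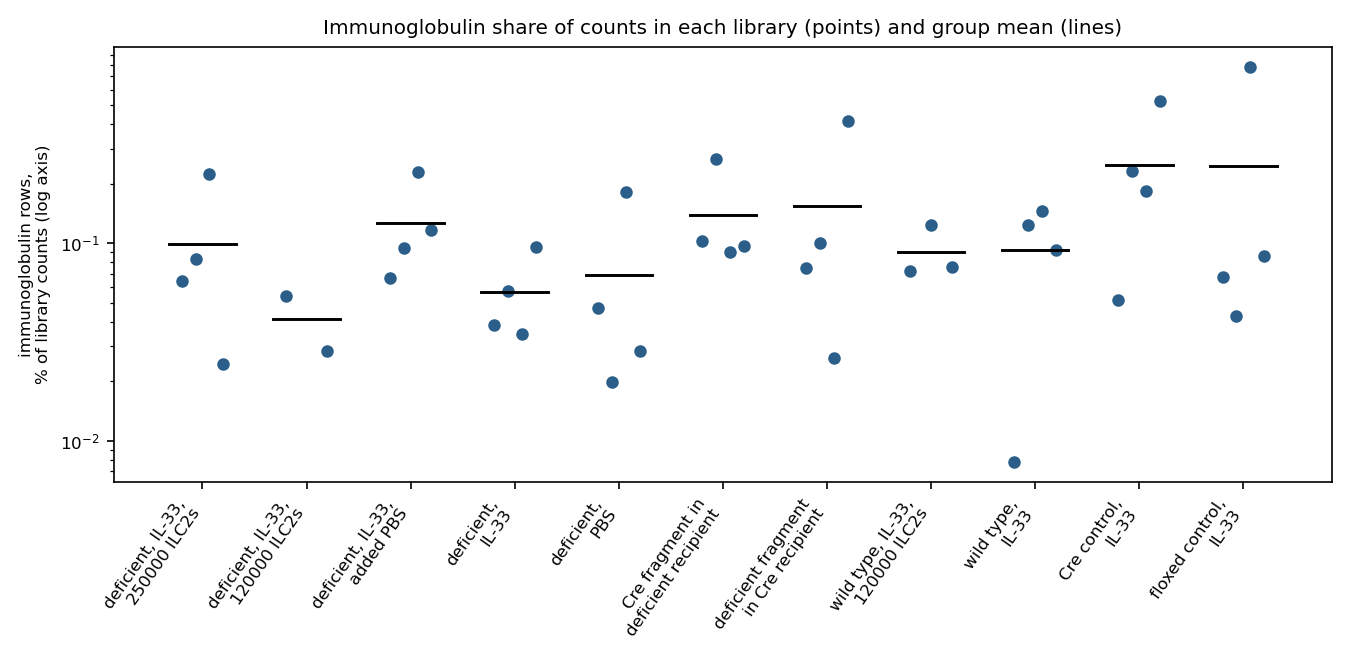
Share of each library's counts in immunoglobulin rows (log axis, percent), 1 point per library in replicate order from left to right, with group means as lines. The deficient libraries given IL-33 alone lie between 0.0348% and 0.0956%, inside the range of the competent ones, 0.00781% to 0.782%.

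The libraries highest in immunoglobulin overlapped most with those highest in plasma cell transcripts. Of the 10 libraries with the highest immunoglobulin share, 8 were among the 10 highest for Jchain, the small chain that joins IgM and IgA into polymers, and 7 among the 10 highest for Mzb1, a chaperone of antibody-secreting cells. The same overlap was 6 for Tnfrsf17, the plasma cell receptor BCMA, and 5 for Xbp1, a regulator of secretion. For the B cell surface genes it was 4 for Cd79a and 2 for Ms4a1, the gene of CD20, and 1 for Pigr, the epithelial receptor that carries IgA and IgM across mucosa. Among the 10 libraries lowest in immunoglobulin the picture was more even, with 8 among the 10 lowest for Jchain and 7 each for Mzb1, Cd79a and Ms4a1. These overlaps are a description over libraries that share depth and scaling, and no test was made of them.

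Among constant regions, IgM heavy chain and kappa transcripts were the most abundant per length. Over the 41 libraries the median was 267 CPM per kb of exon for Igkc, the kappa constant gene, and 194 CPM per kb for Ighm (IgM, chr12:113418558-113422730). Igha (IgA, chr12:113254830-113260236) followed at 18.4 CPM per kb. The lambda constant genes Iglc1, Iglc3 and Iglc2 had medians of 9.39, 4.97 and 4.33 CPM per kb. The IgG genes and Ighd (IgD) were lowest: 1.48 for Ighg3, 1.41 for Ighd, 0.98 for Ighg2b, 0.59 for Ighg2c and 0.19 CPM per kb for Ighg1. Ranges were wide for each: Ighm ran from 13.0 to 2358 CPM per kb and Igha from 2.33 to 94.5. Ighm and Igkc stand apart from the rest, while Iglc3 and Iglc2, and Ighg3 and Ighd, had medians far closer than their ranges.

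Ighm held 20.1% to 98.3% of the heavy-chain constant counts (median 81.2%) and Igha 1.05% to 74.2% (median 10.96%). After 250000 ILC2s, Igha held 50.3%, 42.5%, 10.9% and 45.3% in deficient lesions, against 10.8%, 5.73%, 1.07% and 18.1% with added PBS. The means were 37.2% ± 17.9 and 8.93% ± 7.28 (SD, n = 4 each), and 3 of the 4 libraries with cells lay above all 4 with added PBS. On the level scale Igha averaged 140.97 ± 62.7 CPM after 250000 ILC2s and 55.9 ± 52.1 CPM with added PBS, and the difference did not pass the test (log2 1.33 ± 1.02, SE, adjusted p = 0.679, edgeR).

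Other groups held single libraries with much IgA. In deficient lesions Igha held 11.7%, 14.9%, 10.96% and 54.3% with IL-33 alone, against 74.2%, 22.7%, 12.3% and 22.8% with PBS alone. Replicate 4 of the IL-33 group and replicate 1 of the PBS group each stood far from their group. Cre-control fragments in deficient recipients had 15.6%, 10.5%, 4.52% and 3.07%, whereas deficient fragments in Cre-control recipients had 49.4%, 41.3%, 18.7% and 2.26%. Wild type had 33.7%, 1.92%, 6.78% and 27.9%, Cre controls 9.43%, 1.05%, 8.01% and 8.29%, and floxed controls 7.96%, 26.2%, 1.07% and 29.4%. In wild type after 120000 ILC2s Igha held 1.75%, 14.5% and 10.4%, and in deficient lesions after 120000 ILC2s 9.27% and 3.70%. Both deficient libraries after 120000 ILC2s lay below all 4 deficient ones given IL-33 alone. Those 4 lay above all 4 Cre controls but overlapped with wild type and floxed controls.

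IgG made up 0.261% to 47.4% of the heavy-chain constant counts (median 2.95%), and the high values came from different subclasses in different groups. Ighg3, the subclass typical of responses to carbohydrate, held 46.9% in Cre-control replicate 1, 17.3% in wild-type replicate 1 and 16.6% in floxed-control replicate 2. Ighg2b held 20.7% in replicate 4 of the IL-33-treated deficient lesions (Wilson 95% interval 20.2 to 21.3), beside 0.297% to 1.73% in the other 3. Ighg2c, the C57BL/6 counterpart of IgG2a, held 21.01% in replicate 2 of the Cre-control fragments in deficient recipients (20.7 to 21.3), beside 0.547% to 2.08% in the other 3. Ighd ran from 0.0584 to 7.02 counts per 100 Ighm counts, with a median of 0.868. It was highest in deficient lesions given PBS, at 7.02, 5.39, 0.956 and 1.93 per 100, and lower in Cre controls (0.0584 to 0.524) and floxed controls (0.0601 to 0.327).

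**Figure D2:**
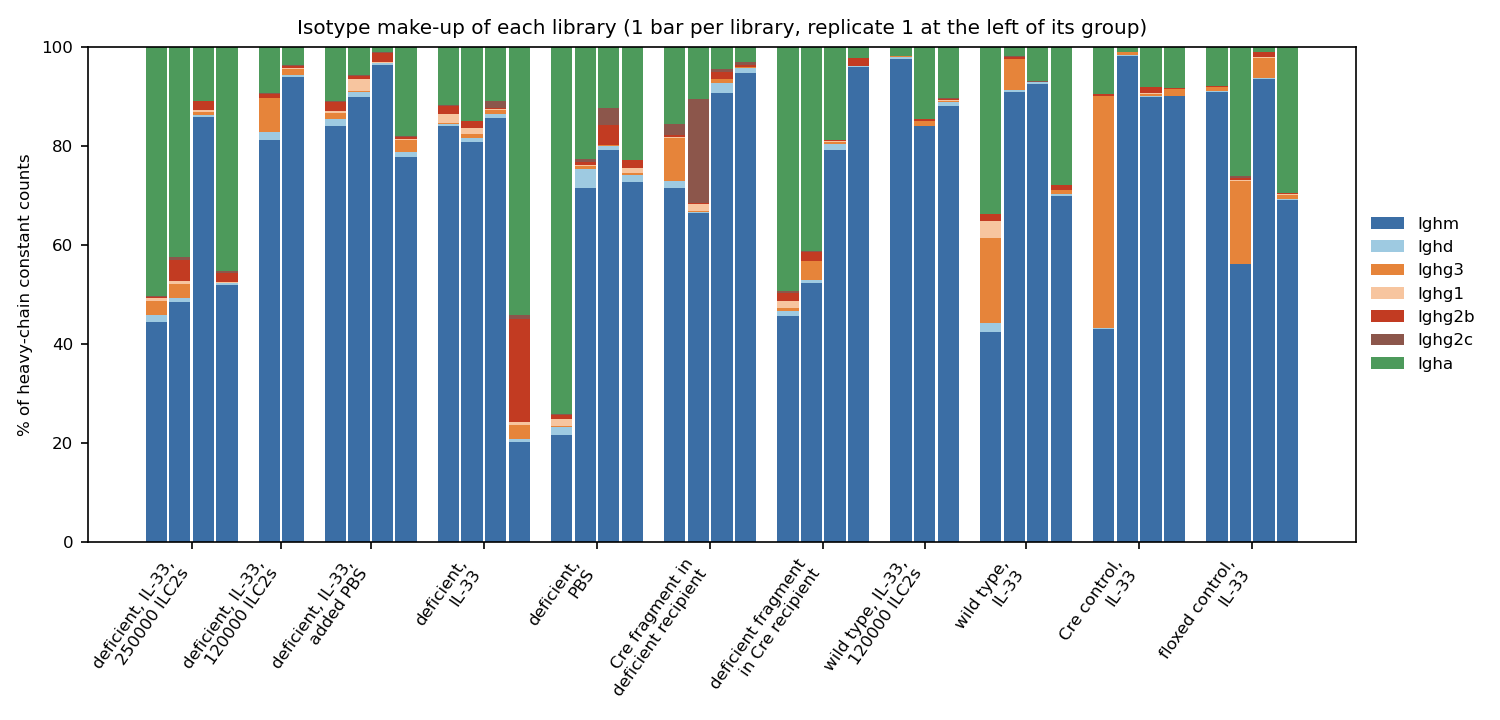
Heavy-chain constant counts of each library divided among 7 isotype genes (percent, stacked bars, 1 bar per library in replicate order). Ighm (blue) fills most bars. Igha (green) holds over 40% in 7 libraries, and Ighg3, Ighg2b or Ighg2c stand out in single libraries.

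Kappa dominated the light chains. Igkc held 73.1% to 99.1% of the light-chain constant counts, with a median of 93.5%. The lowest kappa shares were 73.1% in replicate 1 after 250000 ILC2s and 76.7% in replicate 1 of the deficient fragments in Cre-control recipients, where Iglc3 held 22.95% and 17.7%. In replicate 2 of the 250000-ILC2 group (80.8% kappa) and replicate 2 of the Cre-control fragments in deficient recipients (82.6%), Iglc1 was the larger lambda gene, at 12.8% and 15.6%. Iglc3 was 94.9% identical to Iglc2 over the shorter transcript and shared 10.7% of its windows of 50 bases with it, so counts between these 2 genes are uncertain. Neither shared a window with Iglc1.

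Variable counts were concentrated in few rows. The members hold 60 of 183 annotated Ighv symbols and 59 of 160 Igkv symbols, and reads shared between segments may be missing. The median share of 50-base windows that also occur in other variable exons was 22.7% over Ighv and 25.4% over Igkv rows. It was 0% for the Vκ9 row, Igkv12-89, Igkv2-137, Igkv8-16 and Ighv1-11, but 48.8% for Ighv11-2. Whether this raised the leading shares was not tested. The highest Ighv row held 13.8% to 77.3% of all Ighv counts, with a median of 32.3%, and the inverse Simpson number, the count of equally used rows that would give the same concentration, ran from 1.63 to 20.007 with a median of 6.36. For Igkv the highest row held 14.4% to 71.7% (median 32.04%), and the inverse Simpson number was 1.92 to 17.9 (median 5.86). A single row held at least 25% of the counts in 26 of the 41 libraries for Ighv and in 29 for Igkv. At 40% the libraries were 12 and 16. Different libraries had different leaders: 12 Ighv and 11 Igkv rows came first in at least 1 library.

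Ighv11-2 was the leading heavy-chain row in 23 libraries and the Vκ9 row the leading kappa row in 25, and both led together in 21. Ighv11-2 held 0.758% to 64.0% of Ighv counts (median 23.1%) and at least 5% in 37 libraries, while the next rows by median were Ighv12-3 at 3.13% and Ighv6-3 at 2.24%. The Vκ9 row held 1.16% to 71.7% of Igkv counts (median 26.7%), before Igkv4-91 at 6.39% and Igkv1-110 at 2.39%. Of the 5 libraries with the highest Ighv11-2 share, 4 were among the 5 highest for the Vκ9 row. Counted together, Ighv11-2 and Ighv12-3 held 0.874% to 69.9% of Ighv counts (median 26.2%), and the Vκ9 row and Igkv4-91 held 2.02% to 82.7% of Igkv counts (median 33.1%). Both minima were in replicate 1 of the PBS-treated deficient lesions, the library with 74.2% IgA.

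By group, Ighv11-2 averaged 18.5% ± 11.9 after 250000 ILC2s and 36.8% ± 15.1 with added PBS (SD, n = 4 each). It averaged 26.0% ± 15.8 in deficient lesions given IL-33 and 12.3% ± 11.8 in those given PBS. Cre-control fragments in deficient recipients averaged 32.2% ± 8.84, against 14.4% ± 7.51 for deficient fragments in Cre-control recipients, and the lowest of the first group, 23.4%, lay above the highest of the second, 22.7%. Wild type averaged 27.4% ± 22.1, Cre controls 9.26% ± 5.39 and floxed controls 39.8% ± 20.6. The Vκ9 row had the same order in the transferred lesions, with 42.9% ± 12.2 for Cre-control fragments in deficient recipients (28.7% to 56.3%) and 13.6% ± 5.39 for deficient fragments in Cre-control recipients (8.26% to 19.8%). The transfer groups differ in both recipient and fragment genotype, so these shares cannot be assigned to either. The levels of neither row passed the test in any comparison, and a share moves with every other row of its locus.

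**Figure D3:**
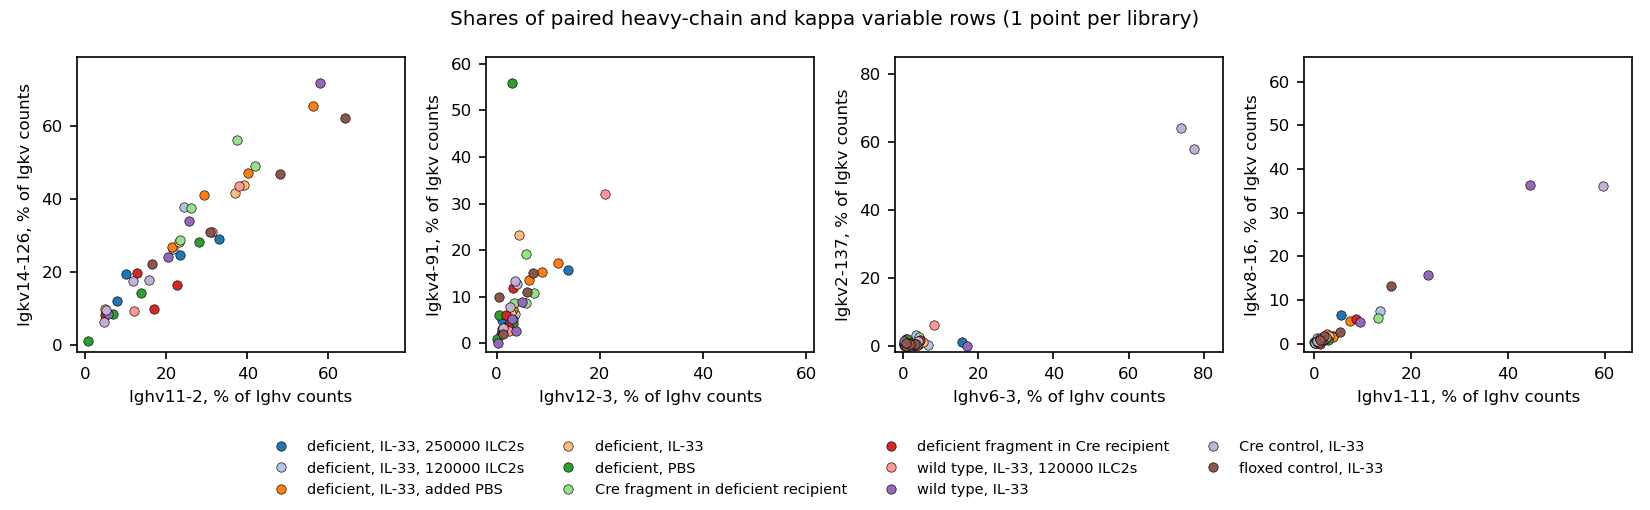
Shares of 4 heavy-chain rows (x axis, percent of Ighv counts) and of the kappa rows that go with them (y axis, percent of Igkv counts), 1 point per library, coloured by group; the first panel's y axis gives the full symbol of the Vκ9 row. Ighv11-2 and the Vκ9 row spread over the whole range together, while the shares of Ighv6-3 and Igkv2-137 pass 50% in 2 Cre-control libraries alone.

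The second natural-antibody pair was uneven. Ighv12-3 reached 20.97% in replicate 1 of the wild type with 120000 ILC2s, where Igkv4-91 held 32.04%. Igkv4-91 reached its highest share, 55.9%, in replicate 3 of the PBS-treated deficient lesions, where Ighv1-26 held 44.7% of Ighv counts and Ighv12-3 2.90%. Only 2 of the 5 highest libraries were common to the 2 rows.

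Other pairs were carried by few libraries. Ighv6-3 held 77.3% and 73.9% of Ighv counts in replicates 2 and 4 of the Cre controls, where Igkv2-137 held 58.0% and 64.1% of Igkv counts, and their medians over the 41 libraries were 2.24% and 0.52%. In Cre-control replicate 2, Ighm was 98.3% of the heavy-chain constant counts. Ighv1-11 and Igkv8-16 led together in Cre-control replicate 1 (59.7% and 36.1%) and in wild-type replicates 3 (44.6% and 36.3%) and 1 (23.6% and 15.7%), and the same 5 libraries were highest for both. Of those 5, 4 were also among the 5 with the highest Ighg3 share of heavy-chain counts, while wild-type replicate 3 had only 0.0105% Ighg3 and 92.6% Ighm. Ighv7-3 led in replicate 1 after 250000 ILC2s (37.7%) and in replicates 1 and 2 of the deficient fragments in Cre-control recipients (33.4% and 23.1%). Of its 5 highest libraries, 4 were among the 5 highest for the Iglc3 share of light chains and 2 among the 5 highest for the Igha share. Igkv12-89 held 64.9% in replicate 2 of the wild type with 120000 ILC2s, with Ighv1-75 at 48.4%, and 59.7% in replicate 4 of the deficient fragments in Cre-control recipients, with Ighv1-55 at 32.3%. These pairings are between shares in whole lesions, not within cells, and the pairs other than the known ones were chosen after their values were seen.

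The first comparison set IL-33-treated deficient lesions (n = 4) against the mean of the wild type, Cre controls and floxed controls (n = 12). Of the members 2 rose, where 6.24% of all genes rose, and 1 fell, where 4.72% of all genes fell. The median log2 fold change was −1.01 over the members and −0.02 over all genes, and 34 members had a positive value. Members varied far more between replicates than other genes, with a median biological coefficient of variation of 1.25 against 0.248 for all genes. With DESeq2 1 member was higher and 13 were lower. The lower ones by DESeq2 included Ighm (log2 −2.40, adjusted p = 0.0177), Iglc3 (−2.58, adjusted p = 0.0108), Ighv6-3, Ighv1-11 and Igkv8-16.

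Igkv4-68, a variable kappa row, had 0.0443, 0.0306, 0 and 0.0434 CPM in deficient lesions. It had 0.203, 3.71, 0.0616 and 1.93 CPM in wild type, 0, 0.469, 0.796 and 2.32 CPM in Cre controls, and 0.230, 1.16, 2.95 and 2.35 CPM in floxed controls. All 4 deficient libraries lay below every competent library except Cre-control replicate 1. As a share of Igkv counts, Igkv4-68 held 0% to 0.0997% in these deficient lesions. Other lesions in deficient recipients were not all so low, with 0.0884% to 0.841% after IL-33 and added PBS. Cre-control fragments in deficient recipients had 0.0993% to 0.4225%. Igkv4-68 fell by 5.29 ± 1.48 on the log2 scale (adjusted p = 0.0187, edgeR). The call was lost without replicate 2 or 4 of the deficient group (highest adjusted p = 0.0784), and also without the liver-rich libraries (−5.25, adjusted p = 0.0640). Igkv4-68 is 96.4% identical to Igkv4-61 and shares 51.6% of its windows with other rows, so its counts are uncertain.

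The calls for a rise each rested on 1 library. Igkv4-63 had 0.0221, 0, 0.107 and 7.51 CPM in deficient lesions, against 0 to 2.08 CPM in competent ones (log2 4.28 ± 1.31, adjusted p = 0.0318, edgeR). Igkv11-125 had 0, 0, 0 and 3.91 CPM in deficient lesions, against 0 to 1.83 CPM in competent ones (4.10 ± 1.36, adjusted p = 0.0484). Without deficient replicate 4 these became −1.08 (adjusted p = 0.886) and −4.32 (adjusted p = 0.607). The Igkv4-63 call was also lost without wild-type replicate 1. The Igkv11-125 call was lost as well without any 1 of the wild-type replicates, of Cre-control replicates 1, 2 and 3 and of floxed-control replicates 1, 2 and 4. Without the liver-rich libraries Igkv11-125 was at 4.44 (adjusted p = 0.0666), and with DESeq2 at 4.32 (adjusted p = 0.142). Fitted on only the groups compared, Igkv4-63 and Igkv11-125 had adjusted p = 0.0511 and 0.0999. Deficient replicate 4 is the library with 54.3% IgA and 20.7% Ighg2b.

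None of the 11 constant genes was called in this comparison. Ighm had 172 ± 59.98 CPM in deficient lesions (SD, n = 4), against 446 ± 305 in wild type, 1308 ± 1083 in Cre controls and 1321 ± 2085 in floxed controls, with a log2 change of −2.42 ± 0.97 (adjusted p = 0.106, edgeR). Its deficient range, 93.4 to 239 CPM, lay within the competent range of 24.5 to 4447 CPM. Igkc changed by −1.66 ± 0.82 (adjusted p = 0.201), Ighg3 by −2.97 ± 1.51 (adjusted p = 0.213), Iglc1 by −1.75 ± 0.99 (adjusted p = 0.275), Iglc2 by −1.35 ± 0.72 (adjusted p = 0.240) and Iglc3 by −2.60 ± 0.98 (adjusted p = 0.0816). Igha stood at 0.13 ± 0.81 (adjusted p = 0.944) and Ighd at 0.24 ± 0.49 (adjusted p = 0.811). Ighg2b (2.30 ± 1.11, adjusted p = 0.186), Ighg1 (1.53 ± 1.04, adjusted p = 0.381) and Ighg2c (1.01 ± 1.15, adjusted p = 0.635) had positive values. Without floxed-control replicate 3 Ighg2b passed the test (3.54, adjusted p = 0.0290). Without deficient replicate 4 the value of Ighg2b was −0.94 and that of Igha −1.35.

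**Figure D4:**
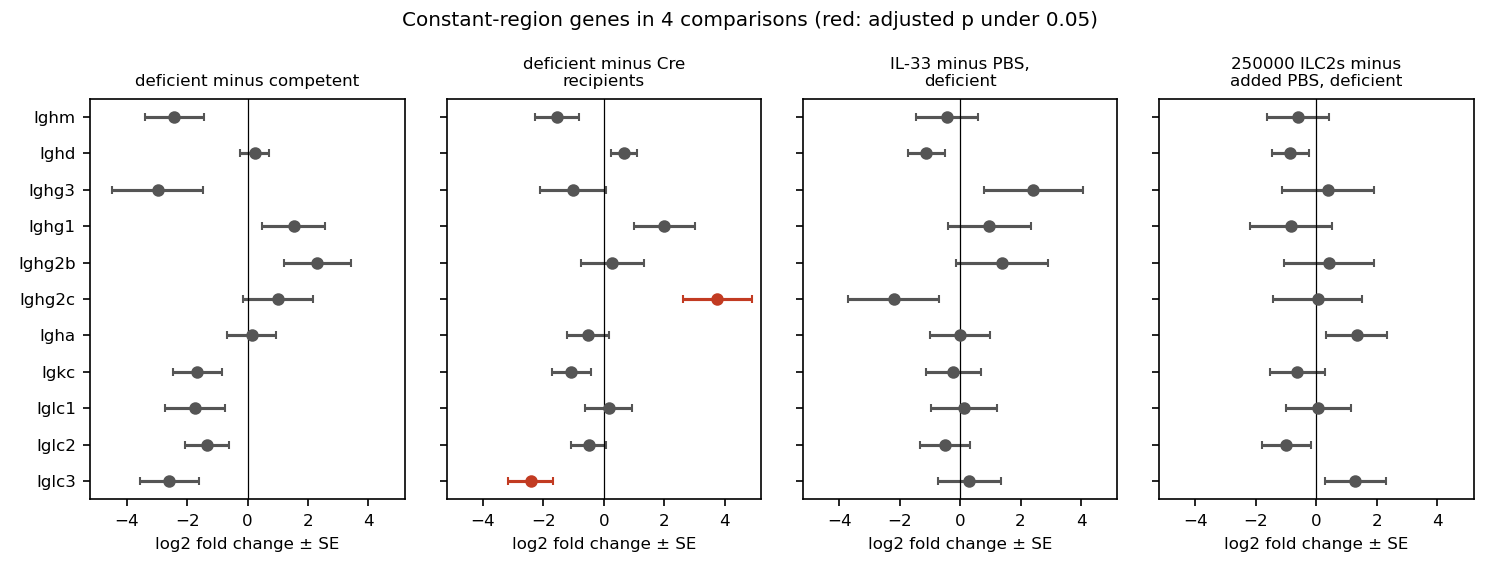
Log2 fold changes (x axis, ± SE) of the 11 constant-region genes in 4 comparisons, with those called in red. The only called ones are Ighg2c (3.75) and Iglc3 (−2.42) between deficient and Cre-control recipients.

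The lesion-transfer groups allowed the recipient's genotype to be compared across fragments: lesions in deficient recipients (deficient and Cre-control fragments, n = 8) against lesions in Cre-control recipients (n = 8), all with IL-33. Of the members 3 rose, where 5.02% of all genes rose, and 4 fell, where 6.29% of all genes fell. The median log2 fold change was −0.41 over the members and 0.01 over all genes. DESeq2 called 3 higher and 7 lower. This comparison shares the IL-33-treated deficient and Cre-control libraries with the first, so the calls are not independent of it.

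Ighg2c (chr12:113285325-113288932) had 0.244, 0.122, 2.83 and 3.65 CPM in deficient lesions and 14.7, 294.6, 3.01 and 2.77 CPM in Cre-control fragments in deficient recipients. In Cre-control recipients it had 1.23, 1.27, 0.229 and 0.410 CPM with deficient fragments, and 0.0884, 0.0494, 0.448 and 3.20 CPM with Cre-control fragments. All 4 Cre-control fragments in deficient recipients were above all 4 deficient fragments in Cre-control recipients, whereas the groups without transfer overlapped. It rose by 3.75 ± 1.14 on the log2 scale (adjusted p = 0.0298, edgeR). The change was 1.98 (adjusted p = 0.223) without replicate 2 of the Cre-control fragments in deficient recipients, and the call was also lost without Cre-control replicates 1, 2 or 3, deficient replicate 4, or replicates 2, 3 or 4 of the deficient fragments in Cre-control recipients.

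Igkv4-63 had 0.0766, 5.16, 0.183 and 0.237 CPM in Cre-control fragments in deficient recipients, beside the deficient values above, against 0.0546, 0.0235, 0 and 0 CPM for deficient fragments in Cre-control recipients and 0.0589, 0.123, 0.323 and 0.158 CPM in Cre controls. It rose by 4.77 ± 1.396 (adjusted p = 0.0238, edgeR), and by 2.10 (adjusted p = 0.434) without deficient replicate 4. That call was also lost without replicate 2 of the Cre-control fragments in deficient recipients, or replicates 2 or 4 of the deficient fragments in Cre-control recipients. Igkv3-2 rose by 3.46 ± 1.14 (adjusted p = 0.0452), with 10.2 and 1.79 CPM in replicates 1 and 2 of the Cre-control fragments in deficient recipients and at most 0.499 CPM in the other 14 libraries. It kept its call in 4 of the 16 fits that left out 1 library, those without replicates 3 or 4 of the Cre-control fragments in deficient recipients, deficient replicate 3 or replicate 1 of the deficient fragments in Cre-control recipients.

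Ighv6-3, whose sequence is printed above, had 2.08, 1.20, 0.374 and 0.999 CPM in deficient lesions and 5.67, 13.2, 2.62 and 1.74 CPM in Cre-control fragments in deficient recipients. It had 1.72, 3.19, 0.408 and 17.6 CPM in deficient fragments in Cre-control recipients, and 2.30, 228, 6.34 and 471 CPM in Cre controls. The 2 highest values were in Cre controls, and the other 14 libraries overlapped. Ighv6-3 fell by 3.61 ± 0.96 (log2, adjusted p = 0.0131, edgeR). The call was lost without replicate 4 of the deficient fragments in Cre-control recipients (−2.77, adjusted p = 0.0555).

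Igkv12-89 had 0.0886, 0.276, 0.480 and 0.934 CPM in deficient lesions and 0.715, 10.6, 2.50 and 2.80 CPM in Cre-control fragments in deficient recipients. It had 3.41, 11.3, 5.92 and 384 CPM in deficient fragments in Cre-control recipients, and 0.678, 13.1, 24.2 and 6.13 CPM in Cre controls. It fell by 4.61 ± 1.25 (log2, adjusted p = 0.0146, edgeR), and without replicate 4 of the deficient fragments in Cre-control recipients the call was lost (−2.67, adjusted p = 0.126). That was the 1 library of 16 whose removal ended it.

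Iglc3 (chr16:19065230-19065681) had 0.509, 0.613, 1.25 and 0.956 CPM in deficient lesions and 4.19, 2.54, 1.61 and 1.79 CPM in Cre-control fragments in deficient recipients. It had 25.1, 19.9, 0.739 and 3.09 CPM in deficient fragments in Cre-control recipients, and 1.09, 0.543, 14.5 and 3.78 CPM in Cre controls. It fell by 2.42 ± 0.75 (log2, adjusted p = 0.0318, edgeR). Ighv5-4 had 0 to 0.499 CPM in deficient recipients and 0.0235 to 2.84 CPM in Cre-control recipients, and fell by 2.96 ± 0.98 (adjusted p = 0.0467). The call of Iglc3 was lost in 9 of the 16 fits that left out 1 library (to −1.69, adjusted p = 0.125, without Cre-control replicate 3, a liver-rich library) and that of Ighv5-4 in 11. For Iglc3 these were Cre-control replicate 3, deficient replicates 1, 2 and 4, replicates 1 and 2 of the deficient fragments in Cre-control recipients and replicates 2, 3 and 4 of the Cre-control fragments in deficient recipients. For Ighv5-4 they were Cre-control replicates 1 and 3, deficient replicates 1, 2 and 3, replicates 1 and 3 of the deficient fragments in Cre-control recipients and all 4 Cre-control fragments in deficient recipients.

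**Figure D5:**
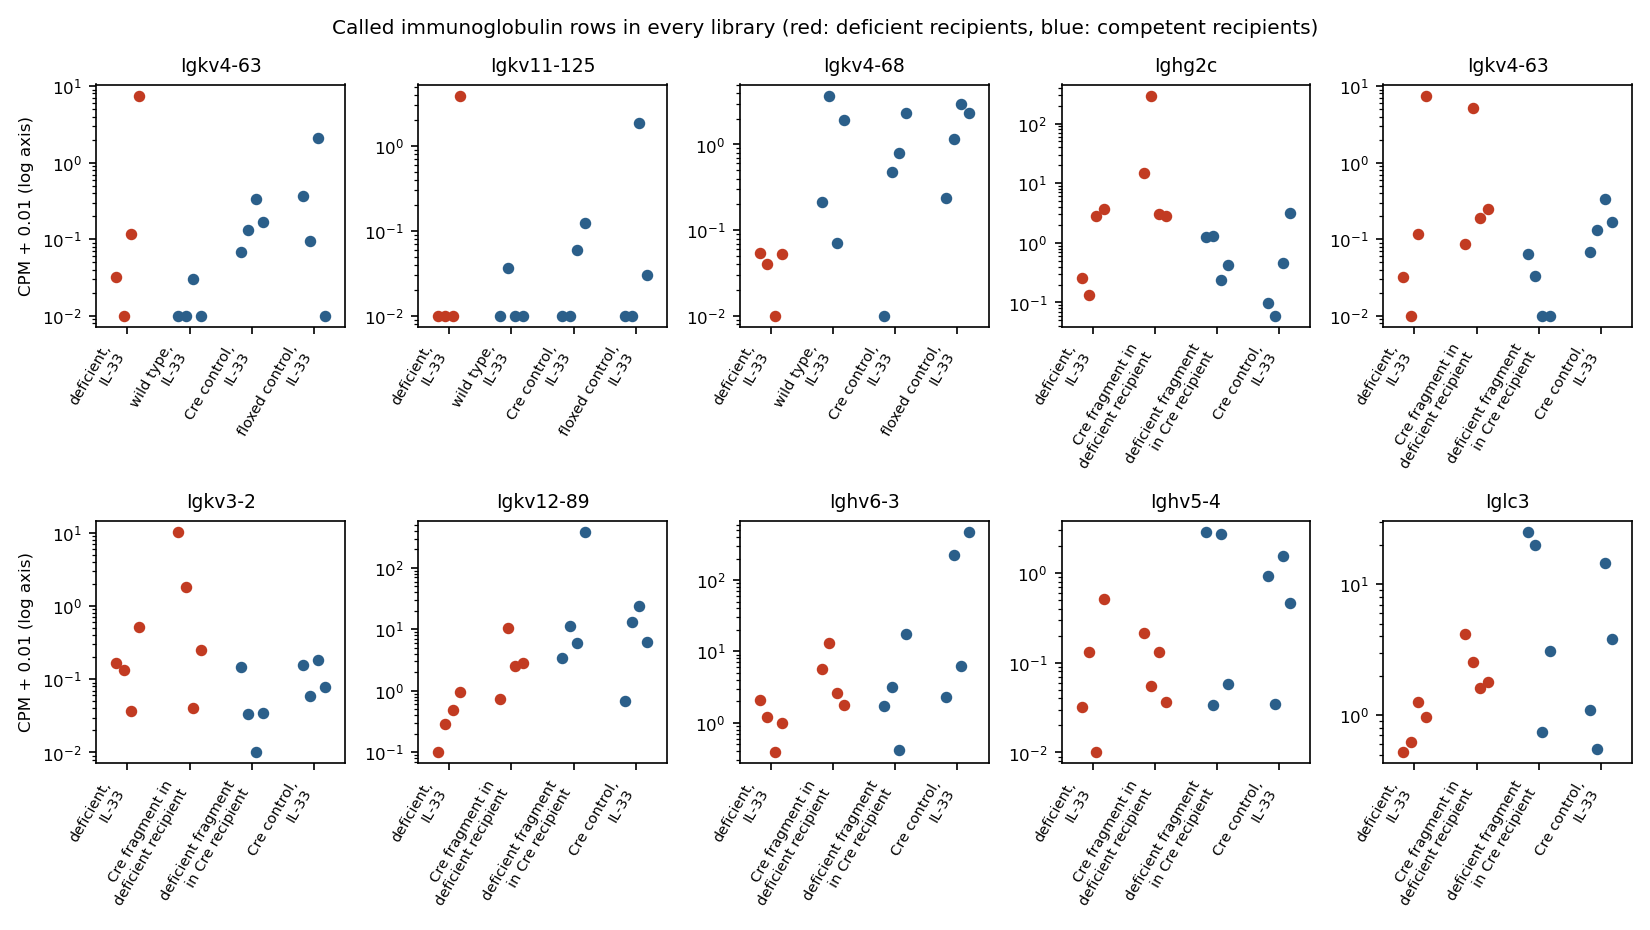
Levels of the called rows (CPM + 0.01, log axis) in every library of the groups compared, with deficient recipients in red and competent recipients in blue. The first 3 panels belong to deficient against competent lesions and the others to the recipient's genotype. Single libraries lie far above the rest in most panels, such as Ighg2c at 294.6 CPM and Igkv12-89 at 384 CPM.

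Without the liver-rich libraries the recipient calls of Iglc3 (−1.64, adjusted p = 0.182, edgeR), Ighv5-4 (−2.57, adjusted p = 0.130) and Igkv3-2 (3.71, adjusted p = 0.0665) were lost. Fitted on only the 4 groups compared, Ighg2c (adjusted p = 0.0680), Iglc3 (0.0634), Ighv5-4 (0.0960), Ighv6-3 (0.0506) and Igkv4-63 (0.0542) missed the threshold with nearly the same changes.

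The other constant genes were not called by recipient. Ighm had −1.55 ± 0.74 (adjusted p = 0.182, edgeR), Igkc −1.07 ± 0.65 (adjusted p = 0.309), Ighg1 2.00 ± 1.00 (adjusted p = 0.207) and Igha −0.52 ± 0.71 (adjusted p = 0.696). Ighg1 passed the test without replicate 1 of the deficient fragments in Cre-control recipients (3.36, adjusted p = 0.0393). Ighg3 stood at −1.02 ± 1.09, Ighd at 0.66 ± 0.43, Ighg2b at 0.29 ± 1.05, Iglc1 at 0.16 ± 0.77 and Iglc2 at −0.50 ± 0.58.

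Genes of the cells that make, receive or transport antibody were counted by list, beside 6.24% of all genes that rose and 4.72% that fell in deficient against competent lesions. There 1 of 15 B cell genes rose: Cd72, an inhibitory co-receptor of B cells that macrophages can also express, had 10.3 ± 3.01 CPM in deficient lesions, against 3.73 ± 0.569 in wild type, 5.40 ± 0.820 in Cre controls and 4.78 ± 0.880 in floxed controls (SD, n = 4 each; log2 1.16 ± 0.25, adjusted p = 0.00276, edgeR). Of 18 plasma cell genes 1 fell, Irf4, a transcription factor of plasma cells and of several other immune cells. It had 10.4 ± 1.07 CPM in deficient lesions, against 24.95 ± 7.53 in wild type, 35.4 ± 14.6 in Cre controls and 29.6 ± 20.2 in floxed controls (−1.51 ± 0.34, adjusted p = 0.00377). Its 4 deficient values, 9.10 to 11.7 CPM, lay below all 12 competent ones, of which the lowest was 16.1 CPM. Other lesions in deficient recipients did not all lie so low. Irf4 had 16.6 to 24.3 CPM with IL-33 and added PBS, and 16.9 to 28.0 CPM in Cre-control fragments in deficient recipients. Both groups lay above the lowest competent value, whereas deficient lesions given PBS alone had 5.76 to 10.6 CPM. The median log2 change was −0.18 over the B cell list and −0.38 over the plasma cell list, against −0.02 over all genes.

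Jchain (−1.30 ± 0.79, adjusted p = 0.314), Mzb1 (−1.61 ± 0.67, adjusted p = 0.120), Cd79a (−0.67 ± 0.58, adjusted p = 0.511) and Pigr (−0.18 ± 1.59, adjusted p = 0.963) did not pass edgeR's test there. DESeq2 called Mzb1 lower (−1.60, adjusted p = 0.0464). Mzb1 had 1.02 ± 0.588 CPM in deficient lesions, against 1.88 ± 0.776 in wild type, 5.18 ± 5.10 in Cre controls and 3.18 ± 3.96 in floxed controls. Among 7 germinal centre and class-switching genes measured, Gcsam rose (1.08 ± 0.34, adjusted p = 0.0383) and Mef2b fell (−1.43 ± 0.45, adjusted p = 0.0377). Of 10 genes on the B-1 and peritoneal B cell list, 1 fell, Il5 (−4.12 ± 0.54, adjusted p = 2.0e-05). Its product is a cytokine that sustains B-1 cells and eosinophils and is itself made by ILC2s. Levels of Il5 were low, at 0.0374 ± 0.0319 CPM in deficient lesions. They were 0.565 ± 0.245 CPM in wild type, 1.21 ± 0.442 in Cre controls and 0.484 ± 0.143 in floxed controls.

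Of 11 antibody receptor and transport genes, Fcgr1, the high-affinity IgG receptor, rose (1.18 ± 0.28, adjusted p = 0.00614), and Fcgrt, the neonatal Fc receptor that protects IgG from breakdown, fell (−0.72 ± 0.22, adjusted p = 0.0324). Glycam1, a product of high endothelial venules, rose among 8 lymphoid tissue genes, with 1.22 ± 0.444 CPM in deficient lesions, against 0.121 ± 0.0910 in wild type, 0.158 ± 0.0530 in Cre controls and 0.133 ± 0.0686 in floxed controls (3.13 ± 0.40, adjusted p = 1.4e-05). Cd4 rose among 10 T cell genes (1.54 ± 0.44, adjusted p = 0.0199). None of 3 measured genes of the surrogate light chain and receptor assembly was called. Of the lists for other tissues, 3 of 10 adipocyte genes rose, 2 of 8 intestinal genes rose and 2 fell, and none of 14 liver or 12 skeletal muscle genes was called. The part of these tissues in the immunoglobulin results was not tested.

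By recipient genotype the same list members were called for the B cell (Cd72, 1.01 ± 0.23, adjusted p = 0.00412, edgeR), germinal centre (Gcsam and Mef2b) and B-1 lists (Il5, −3.81 ± 0.38, adjusted p = 8.8e-08). On the plasma cell list Irf4 (−1.13 ± 0.27, adjusted p = 0.00546) and Derl3, a protein of antibody-secreting cells' quality control (−1.87 ± 0.61, adjusted p = 0.0427), fell. Derl3 had 1.79 ± 0.779 CPM in deficient lesions and 2.37 ± 0.382 in Cre-control fragments in deficient recipients, against 4.72 ± 3.46 for deficient fragments in Cre-control recipients and 12.0 ± 10.2 in Cre controls, and its call was lost in 12 of the 16 fits that left out 1 library. Fcgr1 rose while Fcgr2b, the inhibitory IgG receptor, and Fcgrt fell. Glycam1 rose by 3.46 ± 0.41 (adjusted p = 1.5e-06) together with Cd4, Cd8a and Cd8b1. Adipoq, Lep and Retn of the adipocyte list rose here too, and Muc2 of the intestinal list fell, with no call among the liver and skeletal muscle genes. Jchain (−0.78 ± 0.63, adjusted p = 0.475), Mzb1 (−1.27 ± 0.53, adjusted p = 0.125), Cd79a (0.08 ± 0.48, adjusted p = 0.938) and Pigr (0.35 ± 1.37, adjusted p = 0.908) were not called.

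IL-33 against PBS in deficient lesions (n = 4 each) called 0 members by edgeR, with 0.00941% of all genes higher and 0% lower. At an unadjusted p under 0.05 there were 7 members, and DESeq2 called 0. Ighm had 172 ± 59.98 CPM with IL-33 and 231 ± 302 with PBS (−0.43 ± 1.02, adjusted p = 0.988). Igha had 85.8 ± 111 CPM with IL-33 and 85.7 ± 70.5 with PBS, and Igkc 102 ± 51.5 with IL-33 and 118.8 ± 133 with PBS. The log2 changes were 0.00 ± 1.00 for Igha, −0.22 ± 0.91 for Igkc, 2.42 ± 1.63 for Ighg3, 0.96 ± 1.37 for Ighg1, 1.39 ± 1.51 for Ighg2b, −2.19 ± 1.502 for Ighg2c and −1.12 ± 0.61 for Ighd. They were 0.12 ± 1.097 for Iglc1, −0.50 ± 0.82 for Iglc2 and 0.31 ± 1.03 for Iglc3. With 4 libraries a group, changes as small as these standard errors were not detectable, and larger ones could be missed too.

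Transfer of 250000 ILC2s against added PBS (n = 4 each) called 0 members and 0% of all genes. Unadjusted p was under 0.05 for 11 members, and DESeq2 called 1 lower. Ighm had 418 ± 561 CPM after ILC2s and 642 ± 332 with added PBS (−0.62 ± 1.02, adjusted p = 0.867, edgeR), and Igkc 160 ± 175 after ILC2s and 247 ± 115 with added PBS (−0.63 ± 0.91, adjusted p = 0.844). The log2 changes of the rest were 1.29 ± 1.01 for Iglc3, 0.06 ± 1.08 for Iglc1, −0.995 ± 0.82 for Iglc2, −0.85 ± 0.60 for Ighd, 0.38 ± 1.53 for Ighg3, −0.83 ± 1.36 for Ighg1, 0.41 ± 1.49 for Ighg2b and 0.05 ± 1.47 for Ighg2c.

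The other comparisons also called 0 members by edgeR. Transfer of 120000 ILC2s had 4 members at an unadjusted p under 0.05 in deficient and 10 in wild-type lesions, with 0% of all genes called in each, and DESeq2 called 2 lower in deficient and 0 in wild-type lesions. Deficient against Cre-control fragments across both recipients had 16 such members (0.00471% of all genes higher and 0% lower, 1 member lower by DESeq2). Cre against floxed controls had 14 (0.179% of all genes higher and 0.151% lower, 2 members higher by DESeq2), and wild type against both had 26 (1.73% of all genes higher and 0.918% lower, 5 members lower by DESeq2). Added PBS against IL-33 alone, both in deficient lesions, had 16 (0.00471% of all genes higher and 0.00941% lower, 5 members higher and 1 lower by DESeq2). There the median over the members was 1.02, against 0.01 over all genes, and Ighm had 642 ± 332 CPM with added PBS and 172 ± 59.98 CPM with IL-33 alone, with no overlap (365 to 1124 CPM and 93.4 to 239 CPM).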

How the data were processed

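Gene counts for 41 lesion libraries were used as deposited by the authors, with raw counts for 21249 genes. The submitters' processing notes name Trimmomatic, STAR, HTSeq, edgeR, limma and GRCm38. Versions, strandedness, counting mode and annotation are not given in the sources used here. Reads spanning a variable and a constant segment, or shared by near-identical segments, may therefore be set aside or split, and counts are not protein. The lowest gene total was 411, a mean of 10.0 per library.

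All genes were fitted in 1 model of 11 group means with edgeR 4.0.16 (TMM, robust quasi-likelihood F-test, R 4.3.3), with Benjamini-Hochberg adjustment over all genes at 0.05. Standard errors were obtained from the fold change and the F statistic, as |log2 fold change|/√F. Shares are of raw counts. Alternatives were RLE scaling, TMM without immunoglobulin rows, DESeq2 1.42.0, a mean of at least 1 CPM, only the groups compared, a replicate block, no liver-rich libraries and each library left out. Named were called members, all constant genes, list genes that were called and genes always given (Jchain, Mzb1, Cd79a, Pigr). Some list genes are not reported here. Members and lists were chosen with earlier results of these data known. On simulated data for deficient against competent lesions over 21249 genes, 15% of 2-fold and 88% of 4-fold changes were recovered. All genes were simulated at a dispersion, the square of the biological coefficient of variation, of 0.2. The members varied far more, with a median coefficient of 1.25, so these rates do not apply to them.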

Additional observations from a re-analysis of the deposited data

Results flagged for a closer look

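In groups of 4, a library was picked out where its gap to the nearest other library, divided by the group's range, passed Dixon's critical value of 0.829. This held for 21 of 92 groups tested. Chance gives about 1 in 20 only for independent, normally distributed values. CPM are skewed, the Ighm and Igha shares depend on each other and the called rows owe their calls partly to single libraries, so the 21 are not read as an excess over chance. The values are given without an explanation, and the cause was not tested.

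For the immunoglobulin share of counts, replicate 3 of the PBS-treated deficient lesions stood at 0.181%, replicate 2 of the Cre-control fragments in deficient recipients at 0.265% and floxed-control replicate 3 at 0.782%, each above its group. For the Ighm share of heavy-chain constant counts, the low libraries were replicate 4 of the IL-33-treated deficient lesions at 20.1%, replicate 1 of the PBS-treated ones at 21.6% and Cre-control replicate 1 at 43.0%. For the Igha share, the first 2 of these libraries were high, at 54.3% and 74.2%, and Cre-control replicate 2 was low at 1.05%. The highest Igkv row held 59.7% in replicate 4 of the deficient fragments in Cre-control recipients.

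Among called rows, Igkv11-125 stood apart at 3.91 CPM in replicate 4 of the deficient lesions, 0.0263 CPM in wild-type replicate 2 and 1.83 CPM in floxed-control replicate 3. Igkv4-63 stood apart at 7.51 CPM in deficient replicate 4, 5.16 CPM in replicate 2 of the Cre-control fragments in deficient recipients, 0.0205 CPM in wild-type replicate 3 and 2.08 CPM in floxed-control replicate 3. Ighg2c did so at 294.6 CPM in replicate 2 of the Cre-control fragments in deficient recipients and at 3.20 CPM in Cre-control replicate 4. In replicate 4 of the deficient fragments in Cre-control recipients, Ighv6-3 stood at 17.6 CPM and Igkv12-89 at 384 CPM. The wild-type values of Igkv11-125 and Igkv4-63 are near the smallest levels counted.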

How the results depend on the processing

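Counts of called members were small and moved with most settings, and the causes were not tested. The filter at a mean of at least 1 CPM removed Igkv4-63, Igkv11-125, Igkv4-68, Ighv5-4 and Igkv3-2. These rows were therefore not tested under it. In deficient against competent lesions, the 2 higher members became 0 with the CPM filter, 0 with the replicate block, 0 with only the groups compared, 1 with DESeq2 and 0 to 5 when each library was left out. The 1 lower member became 0 with the filter, 0 without the liver-rich libraries, 13 with DESeq2 and 0 to 1 when each library was left out. By recipient, the 3 higher became 1 with the filter, 1 with the block, 1 with only the groups compared and 0 to 4 when each library was left out. The 4 lower became 1 with only the groups compared, 7 with DESeq2 and 2 to 6 when each library was left out. For wild type against both controls the 0 lower became 1 with the filter, 5 with DESeq2 and 0 to 1 when each library was left out. DESeq2 also called 1 lower after 250000 ILC2s, 2 lower after 120000 ILC2s in deficient lesions, 1 lower by fragment, 2 higher between Cre and floxed controls, and 5 higher and 1 lower with added PBS. Libraries led by 1 Ighv row numbered 40 at 15% and 12 at 40%, and for Igkv 16 at 40%.

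Signs turned as follows. In deficient against competent lesions, Igha was −0.081 with the block, and Pigr 0.74 with the block and 1.55 without the liver-rich libraries. For IL-33 against PBS with the block, Ighm was 0.37, Igha −0.70, Igkc 0.091 and Iglc1 −0.08. There Igha was −0.004 with RLE, −0.015 with the filter, −0.011 with only the groups compared and −0.004 with DESeq2, and Iglc1 −0.42 without the liver-rich libraries. After 250000 ILC2s with the block, Ighg2c was −0.027 and Iglc1 −0.18. Same-numbered libraries did not deviate together in every pair of any of 17 group pairs (r from −0.634 to 0.599). This cannot exclude that some of them share a source or a batch. With the block the calls of Igkv11-125 (adjusted p = 0.280) and Igkv4-63 (0.119) in deficient against competent lesions, and of Ighv5-4 (0.104), Derl3 (0.0707), Ighg2c (0.0587) and Igkv3-2 (0.0531) by recipient, were lost.

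With each library left out, deficient against competent values ran from −0.038 to 0.45 for Ighd, −0.94 to 3.54 for Ighg2b, −1.35 to 0.53 for Igha, −4.32 to 5.93 for Igkv11-125, −1.08 to 4.97 for Igkv4-63 and −0.70 to 1.11 for Pigr. For IL-33 against PBS they ran from −0.76 to 1.09 for Ighm, −1.85 to 3.90 for Ighg2b, −2.86 to 2.58 for Ighg2c, −1.50 to 0.64 for Igha, −0.62 to 0.94 for Igkc and −0.43 to 0.49 for Iglc1. After 250000 ILC2s they ran from −0.003 to 1.84 for Ighg3, −1.53 to 1.43 for Ighg1, −0.29 to 1.32 for Ighg2b, −0.85 to 0.53 for Ighg2c and −0.44 to 0.45 for Iglc1. By recipient they ran from −2.55 to 0.08 for Ighg3, −1.32 to 1.26 for Ighg2b, −1.26 to 0.019 for Igha, −0.81 to 0.64 for Iglc1, −0.059 to 0.26 for Cd79a and −0.32 to 1.82 for Pigr. Igkv12-89 kept its call under each of the 7 alternatives that left out no single library, and Irf4, Cd72 and Glycam1 kept theirs under every alternative run in both comparisons. Shares per exon length and with relatives of at least 97% identity merged were added after seeing the data and are not reported here. The isotype shares given above are not corrected for exon length, which is 1886 bases for Ighm and 2668 bases for Igha.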
